A study of Homo sapiens with 12 samples.

Results

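The JUN family consists of JUN, JUNB and JUND, which encode the transcription factors c-Jun, JunB and JunD. The rows with these names were taken from the table of raw counts, where they are 3 of 20771 genes. RNA was sequenced from 2 lines of Ewing sarcoma, a bone and soft tissue tumor driven by the EWS-FLI fusion, named EW8-RRM1-KO and TC71-RRM1-KO. Both lines carry a Cas9 knockout of the endogenous RRM1 gene, which encodes the catalytic subunit of ribonucleotide reductase, and a doxycycline-inducible, codon-optimized RRM1 transgene. The knockout cells were single cell cloned, so each line may stand for a single clone. Each line has 3 libraries labelled 0 h and 3 labelled 48 h. The labels give the line and the time only. From the study's text, these are taken as cells kept in doxycycline and cells without it for 48 hours. The comparison asks how the loss of RRM1 changes the level of each JUN gene, and how the genes differ in their response.

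AP-1 is a dimer of leucine zipper proteins that binds short DNA elements in promoters and enhancers. A JUN protein pairs with another JUN, with a FOS protein or with an ATF-type partner, and the partner shifts which element is bound. JUN is known as an immediate early gene that acts on its own promoter and whose protein is activated by c-Jun N-terminal kinases (JNK). JUNB is also an immediate early gene and is often a weaker activator than c-Jun, while JUND is known for steady expression in resting and growing cells.

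All 3 genes consist of a single exon in their canonical transcript (hg38, GENCODE release 44). JUN (ENSG00000177606) lies on chromosome 1 from 58776845 to 58784048 on the minus strand, with a canonical transcript of 3257 bases. JUNB (ENSG00000171223) lies on chromosome 19 from 12791486 to 12793315 on the plus strand, with 1830 bases. JUND (ENSG00000130522) lies on chromosome 19 from 18279694 to 18281622 on the minus strand, with 1929 bases.

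The 250 bases before each transcription start are shown with the elements that each window holds. Whether these elements have a part in the responses of the 3 genes was not tested. They are the reference sequence of RefSeq (GRCh38.p14), 5′ to 3′ on the strand of the gene. Capitals mark a match to the jun2, jun1, cyclic AMP response element (CRE) or MEF2 motif. The windows are chr1:58784048-58784297 (minus strand), chr19:12791236-12791485 (plus strand) and chr19:18281623-18281872 (minus strand).
JUN: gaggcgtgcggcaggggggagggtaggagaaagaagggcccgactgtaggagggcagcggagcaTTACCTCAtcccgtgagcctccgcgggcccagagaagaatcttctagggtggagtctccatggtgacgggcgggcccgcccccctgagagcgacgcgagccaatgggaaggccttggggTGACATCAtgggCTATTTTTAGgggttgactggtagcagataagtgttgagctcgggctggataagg
JUNB: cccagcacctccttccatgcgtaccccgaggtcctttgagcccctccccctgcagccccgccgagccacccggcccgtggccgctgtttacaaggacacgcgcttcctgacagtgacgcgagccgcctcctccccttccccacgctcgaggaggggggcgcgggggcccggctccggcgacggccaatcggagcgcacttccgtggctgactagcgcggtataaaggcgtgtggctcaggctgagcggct
JUND: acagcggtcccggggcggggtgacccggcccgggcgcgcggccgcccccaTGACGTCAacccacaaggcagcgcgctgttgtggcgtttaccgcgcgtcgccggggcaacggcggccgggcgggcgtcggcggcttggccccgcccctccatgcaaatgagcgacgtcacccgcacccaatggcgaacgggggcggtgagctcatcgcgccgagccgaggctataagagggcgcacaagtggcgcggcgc

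The JUN window held both elements known from studies of this promoter as sites of JUN and ATF dimers. The jun1 element TGACATCA lay 67 to 60 bases before the start, and 2.37% of 35116 promoter windows of the same length held it on either strand. The jun2 element TTACCTCA lay 186 to 179 bases before the start, and 0.644% of windows held it. A MEF2 motif, the element of the MEF2 factors, lay 55 to 46 bases before the start (0.515% of windows). JUND held instead the palindromic CRE, TGACGTCA, 200 to 193 bases before the start (1.65% of windows).

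JUNB held none of these 4 motifs. All 3 windows held a CCAAT box (CCAAT, in 32.0% of windows) and at least 1 CRE core (TGACG, 21.2%), and 2 of the 3 cores in JUND lay inside its CRE. The GC box GGGCGG, the element of SP1, occurred 5 times in JUND and 2 times in JUN, where 1 copy overlapped the CRE core by a base, and 42.6% of windows held it. The classical AP-1 element TGACTCA (4.20%) and the CArG box of SRF (1.16%) had no match in any of the 3 windows. GC content was 62.0% for JUN, 70.8% for JUNB and 74.8% for JUND, against a median of 58.0% over all windows. Both strands were searched, and a match describes the letters only.

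**Figure D1:**
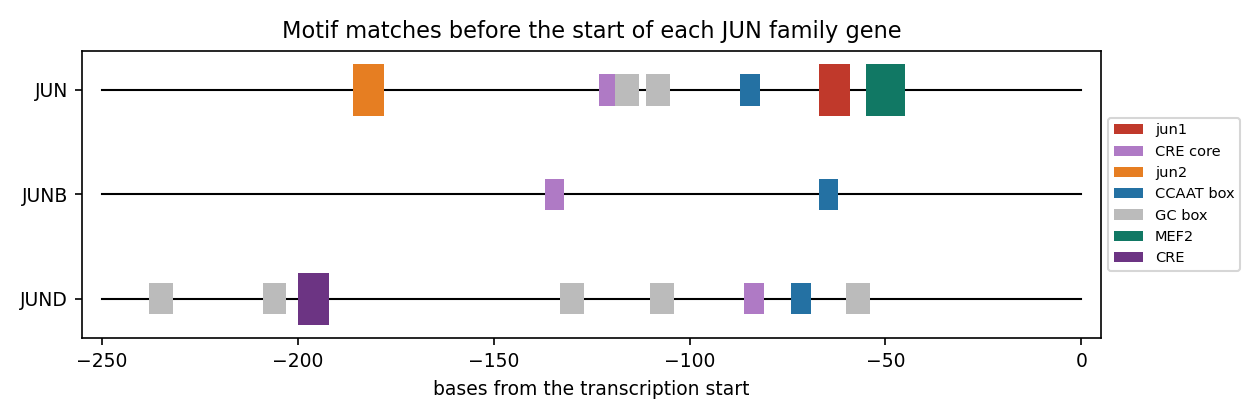
Motif matches in the 250 bases before the start of JUN, JUNB and JUND, by distance from the transcription start in bases. Tall blocks are the jun1, jun2, CRE and MEF2 motifs and short blocks the CRE core, CCAAT box and GC box, and the JUN row alone holds jun1, jun2 and MEF2.

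Counts per library summed to between 18468485 and 35698991. Markers of Ewing sarcoma were present in every library, with all 8 of the listed genes tested and a summed level of 977 to 1153 CPM (counts scaled to library size with TMM factors). Of 5 blood cell markers none passed the filter on low counts, and their sum was at most 0.372 CPM. Of 6 fibroblast markers 5 were tested, and their sum was 168 to 172 CPM in EW8 at 0 h and 239 to 242 at 48 h, and 100 to 104 and 134 to 142 in TC71. Of 6 epithelial markers 4 were tested, with sums of 7.01 to 9.45 and 21.6 to 23.3 in EW8 and 71.5 to 73.7 and 99.0 to 112 in TC71. The epithelial markers CDH1 and KRT19 and the fibroblast marker PDGFRA were not among the genes tested. Every tested fibroblast and epithelial marker had a positive log2 fold change in both lines. COL1A1 (1.79), THY1 (1.02), KRT8 (2.01) and KRT18 (1.33) rose more than 2-fold in EW8 with an edgeR adjusted p below 0.05. No tested marker of these lists did so in TC71. Of all genes tested, 13.9% did so in EW8 and 3.26% in TC71. The part of these markers in the results was not tested. RRM1 itself went from 9.52 ± 0.148 to 70.2 ± 5.54 CPM in EW8 and from 16.2 ± 0.980 to 25.4 ± 1.19 in TC71 (SD, n = 3). The RRM1 row was thus higher at 48 h (log2 fold change 2.88 in EW8 and 0.65 in TC71). The study describes the transgene as codon optimized, and a table of counts per gene does not show which copy the reads came from, so the RRM1 row cannot check which libraries had lost the transgene's RNA. The groups are the libraries labelled 0 h and 48 h, and each direction given here rests on those labels.

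JUN rose from the lowest of the 3 genes at 0 h to the highest at 48 h in both lines. In EW8 it had 106, 85 and 133 counts at 0 h, or 4.64, 4.87 and 4.06 CPM. At 48 h it had 7959, 8137 and 8573 counts, or 423, 408 and 420 CPM. The libraries of the 2 times lay far apart, and those at 48 h differed by only a few percent. The mean went from 4.52 ± 0.419 to 417 ± 7.98 CPM (SD, n = 3), and the rise fitted by edgeR was 93.6-fold. On the log2 scale this was 6.55 with a standard error of 0.09 (adjusted p = 6.28e-24, edgeR's quasi-likelihood test with Benjamini-Hochberg adjustment), which ranked JUN 23rd of 16515 genes tested, counted from the largest rise.

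In TC71, JUN had 285, 224 and 238 counts at 0 h, or 10.62, 10.98 and 9.85 CPM. At 48 h it had 5777, 5494 and 8305 counts, or 221, 205 and 257 CPM. All 48 h libraries were again above all 0 h libraries, and replicate 3 stood highest at 48 h. The mean went from 10.5 ± 0.580 to 227 ± 26.6 CPM (SD, n = 3), a 21.7-fold rise, or 4.44 ± 0.08 on the log2 scale (fold change ± standard error, edgeR adjusted p = 1.06e-20). Although the rise was smaller than in EW8, JUN ranked higher among all genes here, at 12th.

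JUNB rose by less than JUN in both lines. In EW8 its 0 h libraries held 371, 372 and 593 counts and its 48 h libraries 1990, 1928 and 2130. In CPM these were 16.2, 21.3 and 18.1 at 0 h and 106, 96.7 and 104 at 48 h, with no overlap between the times. The mean went from 18.5 ± 2.56 to 102 ± 4.90 CPM (SD, n = 3). The rise fitted by edgeR was 5.56-fold, or 2.48 on the log2 scale (standard error 0.13, edgeR adjusted p = 6.99e-09).

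In TC71, the 0 h libraries held 478, 379 and 423 counts of JUNB and the 48 h libraries 1596, 1244 and 2111. In CPM these were 17.8, 18.6 and 17.5 at 0 h and 60.9, 46.4 and 65.3 at 48 h. The 48 h libraries were all higher but spread widely, with replicate 2 lowest. The mean went from 17.96 ± 0.559 to 57.5 ± 9.89 CPM (SD, n = 3), a 3.21-fold rise, or 1.68 on the log2 scale (standard error 0.13, edgeR adjusted p = 1.20e-06). JUNB ranked 478th in EW8 and 200th in TC71 from the largest rise.

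JUND had the highest level at 0 h and the smallest change. In EW8 the 0 h libraries held 758, 571 and 1183 counts and the 48 h libraries 2282, 2151 and 2241. In CPM these were 33.2, 32.7 and 36.1 at 0 h and 121, 108 and 110 at 48 h, again without overlap. The mean went from 34.0 ± 1.82 to 113 ± 7.32 CPM (SD, n = 3), a 3.31-fold rise, or 1.72 on the log2 scale (standard error 0.07, edgeR adjusted p = 1.62e-16).

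In TC71, the 0 h libraries held 1492, 1188 and 1253 counts of JUND and the 48 h libraries 2646, 2415 and 3584. In CPM these were 55.6, 58.3 and 51.8 at 0 h and 101, 90.1 and 111 at 48 h, so that the lowest 48 h library was still above the highest 0 h library. The mean went from 55.2 ± 3.22 to 101 ± 10.4 CPM (SD, n = 3), a log2 difference of 0.87 (standard error 0.07, edgeR adjusted p = 1.91e-10). At 1.83-fold, this passed the test but not the 2-fold threshold used for a call. JUND ranked 1017th in EW8 and 789th in TC71.

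**Figure D2:**
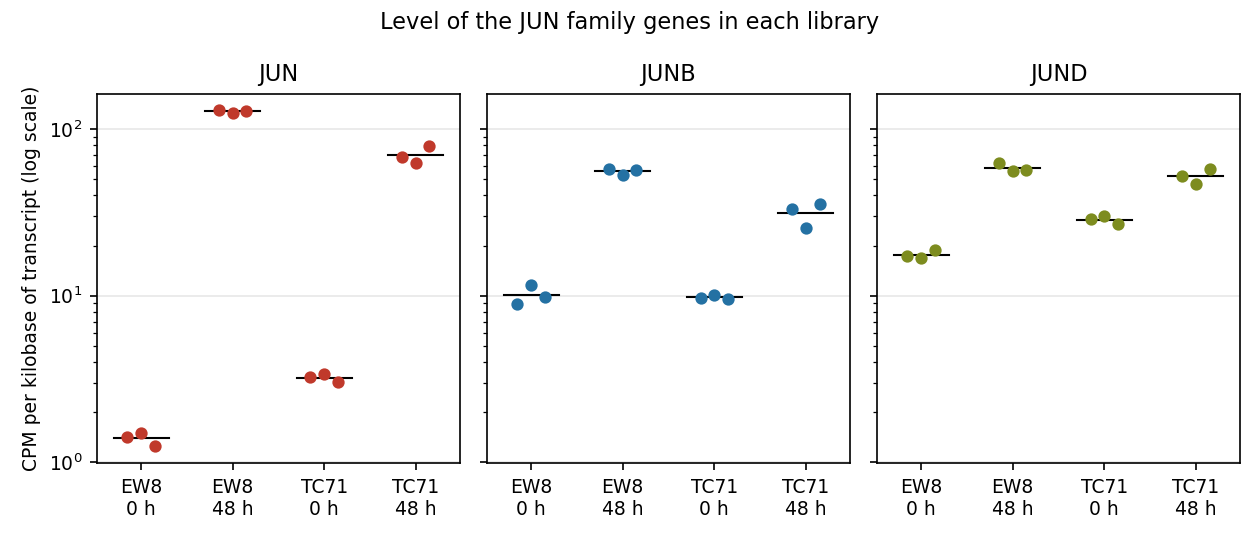
Level of JUN, JUNB and JUND in each of the 12 libraries, in CPM per kilobase of the canonical transcript on a log scale, with points for libraries and bars for the mean of 3. JUN moved from the lowest of the 3 genes to the highest. No 48 h library overlapped a 0 h library of its line for these genes. The share of all genes without overlap was not counted.

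A gene was called where its fold change was above 2 and its adjusted p below 0.05. With both thresholds 17.2% of all genes were called in EW8 and 4.12% in TC71, and with the adjusted p alone 68.6% and 42.1%. Against this background, 3 of the 3 JUN genes were called in EW8 and 2 of 3 in TC71, and all 3 passed the adjusted p alone in both lines. Over all genes the median was 0.03 in EW8 and 0.00 in TC71 on the log2 scale. The share of all genes whose libraries did not overlap between times or lines was not counted. Lack of overlap therefore does not set the JUN genes apart.

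**Figure D3:**
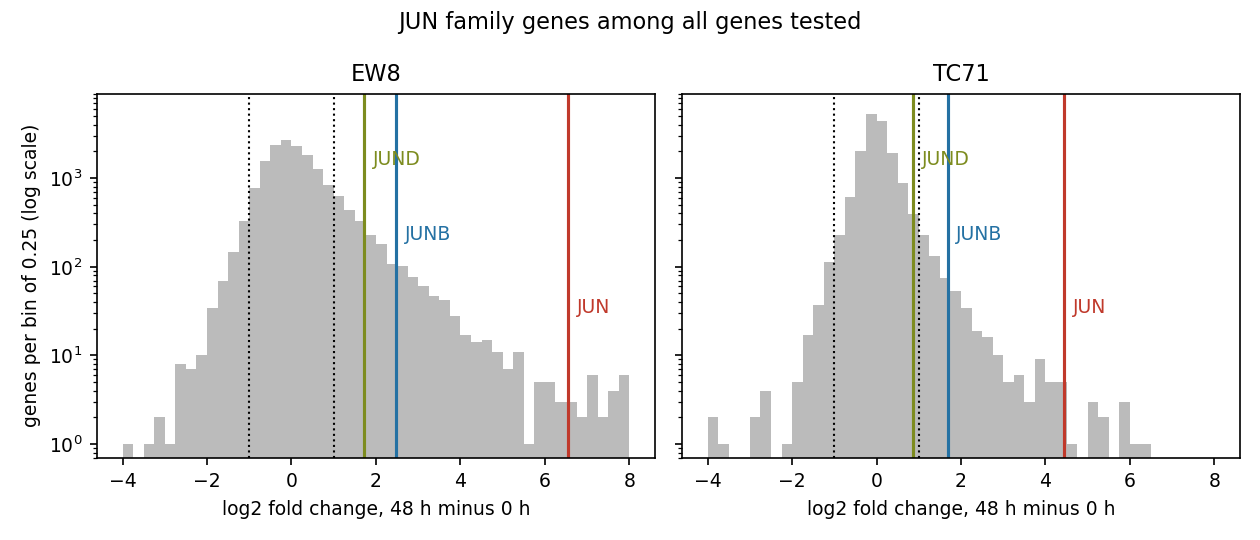
Number of genes per bin of 0.25 in log2 fold change (48 h minus 0 h, log scale of genes) over the 16515 genes tested, with values past the ends of the axis in the last bins. Colored lines mark JUN, JUNB and JUND and dotted lines a 2-fold change, and the JUND line in TC71, at 0.87, lies inside the dotted lines.

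The spread between replicates differed by gene and group. JUN at 0 h had a coefficient of variation of 9.27% in EW8 and 5.54% in TC71, where counting error alone gives 9.62% and 6.34% at its mean of 108 and 249 counts. The 0 h level of JUN is therefore known no better than its read number allows. At 48 h in TC71 the coefficients of variation were 11.7% for JUN, 17.2% for JUNB and 10.3% for JUND, against 1.24%, 2.46% and 1.86% from counting. Replicate 3 was highest there, replicate 1 next and replicate 2 lowest for each of the 3 genes, and the genes also shared a library order in EW8 at 48 h and TC71 at 0 h. Over all genes, the TC71 48 h libraries differed from each other by a chi-square per gene of 4.94 to 9.16, against 2.02 to 4.59 in the other groups. The part of this in the spread of the JUN genes was not tested.

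Each gene responded more in EW8 than in TC71. The log2 fold change of JUN was larger in EW8 by 2.11 (standard error 0.14, edgeR adjusted p of the interaction 4.50e-11). For JUND the difference was 0.86 (standard error 0.10, edgeR adjusted p = 8.90e-08) and for JUNB 0.79 (standard error 0.18, edgeR adjusted p = 0.00422). Differences between the responses were common in these data: 48.1% of all genes passed the adjusted p alone and 8.26% also passed a 2-fold difference, which of the JUN genes only JUN did.

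The lines differed in different ways before and after the loss of doxycycline. At 0 h, JUN was lower in EW8 than in TC71 by a log2 difference of -1.23 (standard error 0.12, edgeR adjusted p = 1.43e-08) and JUND by -0.69 (standard error 0.07, edgeR adjusted p = 9.15e-09), and the libraries of the lines did not overlap. JUNB overlapped between the lines, with a difference of 0.03 (standard error 0.15, edgeR adjusted p = 0.851). At 48 h, JUN was higher in EW8 by 0.87 (standard error 0.06, edgeR adjusted p = 7.56e-12) and JUNB by 0.83 (standard error 0.11, edgeR adjusted p = 3.54e-05). For JUN the order of the lines was thus the opposite of that at 0 h. JUND overlapped at 48 h, with a difference of 0.16 (standard error 0.06, edgeR adjusted p = 0.0229) that depended on the setting. Its adjusted p by edgeR was 0.310 with upper-quartile factors, 0.166 with total counts alone and 0.0958 with only genes of 10 or more counts in each library. It was also above 0.05 without EW8 0 h replicate 2 (0.101), EW8 48 h replicate 1 (0.123), TC71 48 h replicate 1 (0.0520) or TC71 48 h replicate 2 (0.211). Between the lines, 65.7% of all genes passed the adjusted p at 0 h and 72.7% at 48 h, and 16.7% and 21.5% were also past 2-fold, which of these contrasts only JUN at 0 h was. The line and its culture cannot be told apart.

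Levels of different genes can be compared only per length of transcript. At 0 h the order in CPM per kilobase was JUND, JUNB, JUN in both lines, with no overlap between neighbours. In EW8 the levels at 0 h were 17.6 for JUND, 10.1 for JUNB and 1.39 for JUN, and in TC71 28.6, 9.82 and 3.22. At 48 h in EW8, JUN stood at 128 CPM per kilobase, above JUND at 58.6 and JUNB at 55.9. JUND and JUNB overlapped there and their means differed by 1.05-fold, with JUND higher in 2 of 3 libraries. At 48 h in TC71 the order was JUN at 69.8, JUND at 52.2 and JUNB at 31.4, each apart from the next.

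Ranked per kilobase among 15991 genes from the highest level, JUN moved from positions 10927 to 11285 at 0 h to positions 447 to 481 at 48 h in EW8. In TC71 it moved from 9413 to 9664 to 855 to 1083. JUNB moved from 5520 to 6465 to 1246 to 1405 in EW8 and from 5971 to 6183 to 2130 to 2967 in TC71. JUND was already at 4057 to 4283 in EW8 and 2531 to 2787 in TC71 at 0 h, and reached 1134 to 1310 and 1244 to 1526. The 3 genes thus started far apart and ended among the more abundant transcripts of both lines.

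The share of JUN in the summed level of the family per kilobase went from 4.77% ± 0.530 to 52.8% ± 0.879 in EW8 and from 7.72% ± 0.0689 to 45.5% ± 1.26 in TC71 (SD, n = 3). That of JUND went from 60.5% ± 3.63 to 24.1% ± 0.858 in EW8 and from 68.7% ± 0.519 to 34.0% ± 0.600 in TC71. JUNB changed least, from 34.7% ± 3.49 to 23.0% ± 0.452 in EW8 and from 23.6% ± 0.569 to 20.4% ± 1.49 in TC71. Shares of a sum are bound to each other, so the fall of JUND and JUNB in share went with a rise in their own levels.

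Averaged over the lines, the share of JUN was 42.9 percentage points higher at 48 h, and the shares of JUND and JUNB changed by -35.5 and -7.41 points. Each had p = 0.005 in a two-sided exact permutation test over 400 arrangements of the time labels within lines (adjusted p = 0.005 over the 3 shares), the smallest p this design can give. Within a single line, 3 libraries against 3 cannot go below 0.10.

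**Figure D4:**
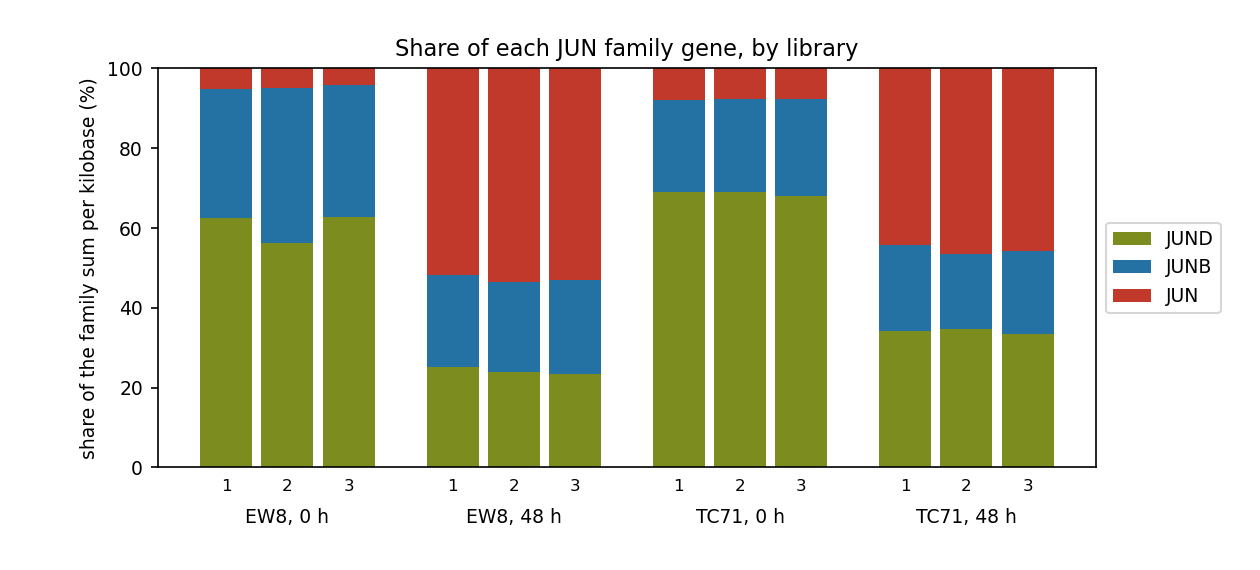
Share of JUND (bottom), JUNB (middle) and JUN (top) in the summed CPM per kilobase of the 3 genes, in percent, for each of the 12 libraries. JUND is the largest part of each 0 h bar, and JUN is the largest part of each 48 h bar.

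Ratios between the genes within a library do not depend on library scaling. The log2 ratio of JUN to JUNB was higher at 48 h by 4.06 in EW8 and 2.77 in TC71, and that of JUN to JUND by 4.80 and 3.57. The ratio of JUNB to JUND was higher by 0.74 in EW8 and 0.80 in TC71. These 2 values lie close to each other, while the ratios with JUN changed more in EW8 by 1.29 and 1.23. Each of the 3 ratios had p = 0.005 over both lines in the exact permutation test, the smallest it can give (adjusted p = 0.005).

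The summed level of the 3 genes went from 29.1 ± 1.42 to 242 ± 8.34 CPM per kilobase in EW8 and from 41.7 ± 2.14 to 153 ± 18.5 in TC71 (SD, n = 3), which is 8.32-fold and 3.68-fold. JUN made up 59.4% of the gain in EW8 and 59.6% in TC71. JUNB gave 21.4% and 19.3% and JUND 19.2% and 21.1%. JUND, with the smallest fold change, thus gave about as much of the added RNA as JUNB.

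The FOS proteins generally do not pair with each other and need a JUN partner. All 4 FOS genes were called up in EW8 and 3 of the 4 in TC71, where of all genes tested 13.9% and 3.26% were called up. The median log2 fold change was 4.36 and 2.72. FOS, whose protein is the classical partner of c-Jun, rose by a log2 fold change of 6.29 in EW8 (standard error 0.11, edgeR adjusted p = 6.50e-31) and 5.77 in TC71 (standard error 0.12, edgeR adjusted p = 1.24e-27). Its response was not shown to differ between the lines (edgeR adjusted p = 0.106). FOSB rose by 5.13 and 3.84 and FOSL1, which encodes Fra-1, by 3.59 and 1.60. FOSL2, which encodes Fra-2, rose by 2.03 in EW8, and its value of 0.80 in TC71 was below 2-fold.

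The summed level of the 4 FOS genes went from 3.54 ± 0.366 to 62.9 ± 1.91 CPM per kilobase in EW8 and from 3.04 ± 0.0672 to 30.8 ± 3.15 in TC71 (SD, n = 3). The JUN sum was 8.26 ± 0.486 times the FOS sum at 0 h and 3.85 ± 0.220 times at 48 h in EW8, and 13.7 ± 0.648 and 4.98 ± 0.146 times in TC71. JUN family RNA thus remained the larger of the 2 sums in every group, by a smaller factor at 48 h.

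Of 9 ATF, BATF and JDP partners, which can form dimers with JUN proteins, 8 were tested, 3 were called up in EW8 and 2 in TC71, beside 13.9% and 3.26% of all genes, and none was called down. The EW8 calls include BATF2, which had at most 3 counts in any EW8 library. The median log2 fold change was 0.58 and 0.25. ATF3, a stress-induced repressor and activator, rose by 4.89 (standard error 0.10, edgeR adjusted p = 2.57e-18) and 3.37 (standard error 0.12, edgeR adjusted p = 1.30e-13), from 6.64 to 192 CPM and from 3.71 to 38.5 CPM.

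CREB5 had 0 counts in all 0 h libraries of both lines. At 48 h it had 162, 180 and 175 counts in EW8 and 10, 5 and 14 in TC71, which is at least 66.4-fold and 2.61-fold higher against a floor of 3 counts per library. BATF2 had at most 1 count at 0 h in EW8, so its call there has no firm size. In TC71, BATF2 had a log2 fold change of 0.99, just under 2-fold. ATF2 (0.52 and 0.10), ATF4 (-0.27 and -0.42), ATF7 (0.48 and 0.31), BATF3 (0.12 and 0.18) and JDP2 (0.64 and 0.12) were not called, and BATF was not tested.

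The kinases that lead to c-Jun phosphorylation were mostly within 2-fold, as were most genes. Of 17 tested, 1 was called up in EW8 and 0 in TC71 by edgeR (7 there at an unadjusted p below 0.05, and 0 called by DESeq2), beside 13.9% and 3.26% of all genes, with medians of 0.07 and -0.04. MAPK8 and MAPK9, which encode JNK1 and JNK2, had log2 fold changes of -0.29 and -0.32 in EW8. MAPK10, which encodes JNK3, rose by 1.42 in EW8 (standard error 0.24, edgeR adjusted p = 3.94e-06), at a level of only 0.646 to 1.83 CPM, and was at 0.09 in TC71. Of the 4 JNK scaffolds 2 were called up in EW8 and 0 in TC71 by edgeR (2 there at an unadjusted p below 0.05, and 0 called by DESeq2), beside the same shares of all genes. MAPK8IP1, which encodes JIP1, rose by 2.75 in EW8 and was at 0.60 in TC71, and MAPK8IP2 rose by 1.22 and was at -0.04.

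Several of the genes listed as JNK phosphatases rose. Of 7 tested, 5 were called up in EW8 and 2 in TC71, beside 13.9% and 3.26% of all genes, and none down, with medians of 2.48 and 0.95 (2.48 and 0.87 when genes with no more than 3 counts in each 0 h library take their lower bound). DUSP8 went from 2, 2 and 6 counts to 1992, 1958 and 2368 in EW8, or 0.128 ± 0.0492 and 107 ± 8.89 CPM (SD, n = 3). In TC71 it had 5, 8 and 6 counts and 446, 396 and 622. Its log2 fold changes were 9.55 (standard error 0.16, edgeR adjusted p = 1.88e-28) and 5.98 (standard error 0.19, edgeR adjusted p = 1.38e-20), above those of JUN in each line.

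DUSP1, an immediate early gene, rose by 2.75 in EW8 and 1.48 in TC71. DUSP16 rose by 2.48 and had 0.95 in TC71. DUSP4 rose by 2.14 in EW8, and in TC71 it had at most 11 counts in a library. DUSP10 had 0 counts in the 0 h libraries of EW8 and 16, 14 and 21 at 48 h, at least 6.54-fold higher against the floor.

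Of all genes, 17.2% were called in EW8 and 4.12% in TC71 in either direction, so lists of this size would hold few calls or none in TC71 at that share. At an unadjusted p below 0.05 there were 70.6% and 49.3% of all genes. The factors known to bind JUN family promoters were not called by edgeR in either line (0 of 8 tested). At the unadjusted p there were 8 in EW8 and 5 in TC71, and DESeq2 called 0. In EW8 all 8 passed the adjusted p (4 higher and 4 lower), so only the 2-fold threshold kept them from a call. MEF2A, whose motif occurred in the JUN window, had log2 fold changes of 0.90 and 0.28, SRF -0.38 and -0.24, and SP1 -0.57 and -0.22. Genes of c-Jun turnover were not called by edgeR or DESeq2 either (0 of 9 tested, 7 and 6 at an unadjusted p below 0.05, medians -0.31 and -0.11), although 2 were higher and 5 lower in EW8 by the adjusted p. Among them the ubiquitin ligase component DET1 had -0.81 in EW8 and FBXW7 0.35. Cofactors gave the same count by both tools (0 of 6 tested, 6 and 2 at an unadjusted p below 0.05, medians 0.23 and -0.02), and by the adjusted p 4 were higher and 2 lower in EW8. MEN1, whose protein binds JunD, was at -0.58 and -0.12.

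Of 34 genes listed as targets of c-Jun or AP-1, 23 were tested, 15 were called up in EW8 and 8 in TC71, beside 13.9% and 3.26% of all genes, and none was called down. The median log2 fold change was 1.69 and 0.61, or 1.52 and 0.46 with such low genes at their bound. PLAU, which encodes urokinase, rose by 5.87 in EW8 and 3.65 in TC71, from at most 7 counts in any 0 h library. CXCL8, a chemokine gene, went from 1, 2 and 2 counts to 287, 336 and 301 in EW8 and rose by 3.06 in TC71.

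CDKN1A, which encodes the cell cycle inhibitor p21, rose by 3.40 in EW8 and 2.05 in TC71, and FN1, which encodes fibronectin, by 2.66 and 1.36. The targets with the highest levels at 0 h in EW8 were not called. They were CCND1, which encodes cyclin D1, at 0.11 in EW8 and 0.18 in TC71, HMGA1 at -0.55 and 0.06, TIMP1 at 0.31 and 0.30, VIM, which encodes vimentin, at -0.38 and -0.24, GJA1 at 0.18 and -0.22, CCNA2, which encodes cyclin A2, at -0.43 and 0.10, and TGFB1 at 0.36 and 0.34. In EW8 all 7 had an edgeR adjusted p below 0.05, HMGA1, VIM and CCNA2 lower and the other four higher. In TC71, CCND1, TIMP1 and TGFB1 were higher and VIM and GJA1 lower by the same test. These 7 were named after their values were seen. The list was written with earlier results of these data known, so its direction is not independent evidence.

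Over all 9 lists, 86 of 99 genes were tested, of which 30 were called up and 0 down in EW8 and 15 up and 0 down in TC71. Of all genes tested, 13.9% and 3.26% were called up. With the adjusted p alone, 56 were higher and 22 lower in EW8 and 33 higher and 13 lower in TC71, where 68.6% and 42.1% of all genes passed in either direction. Of the calls, 5 in EW8 and 1 in TC71 were genes at or under 3 counts in each 0 h library. The medians of the lists were 0.42 and 0.10, against 0.03 and 0.00 over all genes.

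**Figure D5:**
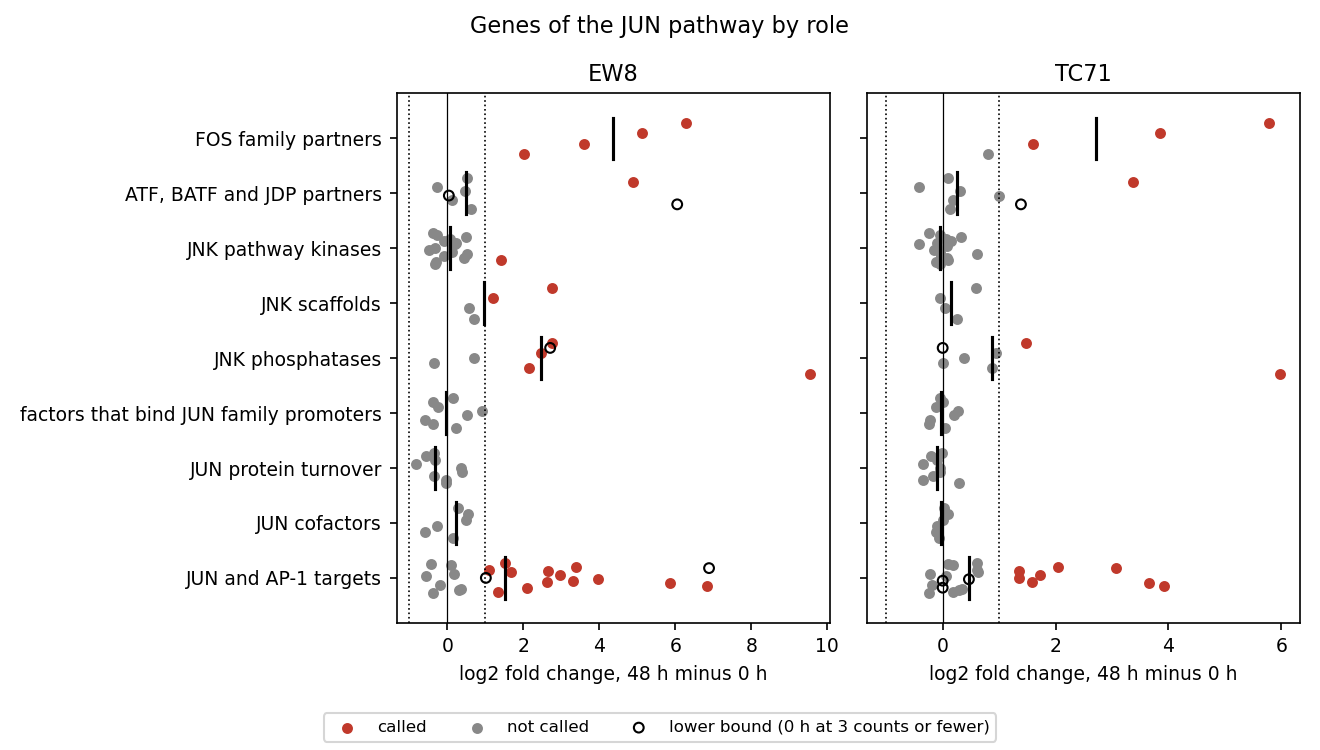
Log2 fold change (48 h minus 0 h) of each tested gene of the 9 lists in EW8 and TC71, with called genes in red, other genes in gray and open circles at the lower bound for genes at 3 counts or fewer in each 0 h library. Black bars are medians with those bounds and dotted lines a 2-fold change, and no gene lies below the lower dotted line.

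Likeness of pattern was measured as the root mean square difference in log2 CPM over the 12 libraries, each gene centred on its own mean, across 12037 genes. The genes most like JUN were EGR3 (0.37), EGR1 (0.40), NEU4 (0.48), FOS (0.62) and EGR4 (0.65). EGR1, EGR3 and EGR4 encode zinc finger factors of the early growth response family. Of the 12037 genes, JUNB was the 59th nearest to JUN, at 1.76, and JUND the 206th, at 2.11. Seen from JUNB and JUND, JUN was the 11869th and the 12013th nearest. The values were centred but not scaled, so the measure also depends on the size of the change.

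JUNB was nearest to SERTAD1 (0.15), GADD45B (0.17), TNFAIP3 (0.17), ENSG00000090920 (0.19), which the table leaves unnamed, and CCN1 (0.20). GADD45B and TNFAIP3 are known as stress and NF-kB response genes, and CCN1 encodes a secreted matrix protein. JUND was nearest to FBXO8 (0.10), SPATA2L (0.11), EGR2 (0.11), HOXB2 (0.11) and SNAI2 (0.12). The 5 nearest genes of each JUN gene were different ones, and JUNB and JUND lay 0.53 apart.

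Of the 12 tested genes beside the JUN genes, 3 were called in EW8 and 1 in TC71, where 17.2% and 4.12% of all genes were called. Next to JUN, MYSM1 (76.8 kb away) had 0.74 in EW8 and -0.01 in TC71, FGGY -0.35 and 0.21, HOOK1 (1031 kb away) 1.01 and 0.48, and ENSG00000185839, unnamed in the table, -0.49 and -0.13. Next to JUNB, TRIR, GET3, PRDX2 and RNASEH2A lay between -0.31 and 0.48 over both lines. The near end of PRDX2 lies 3.50 kb away. Next to JUND, RAB3A had -0.72 and -0.49 and LSM4 -0.45 and 0.20, while PGPEP1 rose by 1.08 in EW8 and had 0.58 in TC71. IQCN, 5.19 kb from JUND, rose by 2.31 and 1.06, at levels of 0.565 to 3.98 CPM.

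HOOK2 is annotated across JUNB on the opposite strand, from 12763003 to 12872740 on chromosome 19. It went from 10.7 ± 0.338 to 13.2 ± 0.428 CPM in EW8 and from 21.7 ± 1.74 to 21.3 ± 1.84 in TC71 (SD, n = 3), with log2 fold changes of 0.30 and -0.02. The libraries were made with a stranded kit, and the sources used here do not state whether the counting used strand.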

How the data were processed

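PolyA RNA of 12 libraries was sequenced by the authors, whose notes name FastQC, STAR and hg38 (versions, counting tool and annotation not given in the sources used here). The deposited values are raw counts per gene, without normalization. The table holds 20771 genes, none with a sum under 21 over the libraries. Libraries were grouped by the line and time in their titles. The labels do not say that replicates were separate cultures, so p-values measure the spread between these libraries.

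Counts were fitted with edgeR 4.0.16 in R 4.3.3: filterByExpr (minimum count 10, total 15; 16515 genes kept), TMM factors (0.919 to 1.06), a robust quasi-likelihood fit of the 4 group means and Benjamini-Hochberg adjustment over all genes tested. The biological coefficient of variation was 4.17%. Fold changes given with a standard error are fitted by edgeR and are not ratios of mean CPM. Standard errors are the log2 fold change divided by the root of the F statistic. CPM values are scaled with TMM factors. Levels per kilobase used the canonical transcript of GENCODE release 44, which matched 19943 identifiers. Replicates differed by a chi-square per gene of 2.02 to 9.16, so none was a copy. Shares and ratios were compared with exact permutation tests. The procedure was tested on simulated data. Promoter windows came from RefSeq (GRCh38.p14), in which all 3 genes matched.

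Same-numbered libraries did not deviate together (correlations of -0.14 to -0.01 over 6 pairs), so numbers were not used as pairs. Members and gene lists were chosen with earlier results of these data known. Named genes were the members, RRM1, all FOS, ATF, BATF and JDP partners, and called genes of each other list. These called genes were up to 4 a list by size of change, with genes whose role is explained. Among the targets, some genes of larger change than those named were left out. The 5 genes of nearest pattern (average log2 CPM of at least 1) were also named. So were the 2 nearest tested genes on each side with opposite-strand genes. Alternatives were other scalings, DESeq2 1.42.0, other filters, each line alone, a replicate block, a fit that was not robust, the adjusted p alone, shares without length and leaving out each library. A gene that falls under the rule for named genes is not reported here. Immunoblots, drug treatments and xenografts were not analysed here. Figures were drawn with matplotlib 3.10.9.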

Additional observations from a re-analysis of the deposited data

Results flagged for a closer look

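The responses of the 3 JUN genes were flagged because they differed between the lines by the interaction test of edgeR. The log2 fold change was larger in EW8 than in TC71 by 2.11 for JUN, 0.79 for JUNB and 0.86 for JUND. In the same test 48.1% of all genes passed the adjusted p, so passing it was common. Of all genes 8.26% also passed a 2-fold difference, which of the JUN genes only JUN did. Groups of 3 libraries were not examined for outlying samples.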

How the results depend on the processing

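Of 431 values recomputed under alternatives for 23 results, 427 were counted as kept. For the JUN gene results this means the same side of the call and, where called, the same direction. The call needs both the fold and the adjusted p for the fits. The other 4 concern the number of JUN pathway genes called, which was 30 in EW8 and 15 in TC71. A number of genes has no side of a call, and small changes in it were counted as kept. Leaving out a library gave 29 to 30 in EW8 and 15 to 17 in TC71. When only genes with 10 or more counts in each library were kept, the number was 13 and 6, since fewer genes were then tested. With the adjusted p alone it was 78 and 46. Total counts alone moved the median over all genes to 0.16 in EW8 (log2 fold change), that of the difference between responses to 0.12 and that between lines at 0 h to -0.14. In EW8 it put JUN at 6.68, JUNB at 2.60 and JUND at 1.85. Leaving out each library in turn gave 6.42 to 6.56 for JUN in EW8 and 4.35 to 4.51 in TC71, 2.36 to 2.53 and 1.58 to 1.81 for JUNB, and 1.66 to 1.76 and 0.79 to 0.94 for JUND. The adjusted p of the JUNB response difference reached 0.0182 at most. For JUND at 48 h between the lines, which was below 2-fold throughout, it ranged from 0.000800 to 0.310 and was above 0.05 in 7 of 20 alternatives. No other JUN gene result moved across 0.05 by the adjusted p. Shares of counts without length gave a JUN difference of 52.3 percentage points. Depth limits the level of JUN at 0 h and genes at a few counts there.

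With the replicate number as a block, 2856 genes were called in EW8 and 663 in TC71, against 2848 and 680 without it, and JUN pathway genes numbered 30 and 16. The log2 fold change of JUN was then 6.56 and 4.44, and no call of a JUN gene changed. Pairing same-numbered libraries gave p = 0.0312 for each share and ratio in the exact sign-flip permutation test, the smallest p that test can give.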
